A study of Mus musculus with 12 samples.

Results

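Aminoacyl-tRNA synthetases were followed in 12 RNA-seq libraries of mouse splenic CD4 T cells. These enzymes join each amino acid to its transfer RNA, so every protein a cell makes depends on them. A cytosolic set serves the ribosomes of the cytoplasm and a separate set, mostly with the suffix 2, is imported into mitochondria, while Gars and Kars act in both places. Part of the cytosolic set is held in a multisynthetase complex by scaffold proteins. Resting T cells make little protein and raise synthesis steeply when their receptor is triggered, and the transcription factors MYC and ATF4 are known to act on many synthetase genes. MYC is made during such growth, and ATF4 when amino acids run short or proteins misfold.

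The members were all genes whose symbol in the files is that of a synthetase. This gave 31 of the 12918 symbols in the files, 16 cytosolic and 15 mitochondrial. A synthetase symbol stood on 32 loci, and of the 2 loci named Rars the one with the higher mean level was kept. Levels are in FPKM, fragments counted per kilobase and scaled to the size of the library, and so are adjusted for length. Between genes they compare only roughly, since they may rest on different parts of the transcripts and a locus can hold more than 1 gene. A locus was tested if 3 or more of the 12 libraries had it at 1 FPKM or above, which 30 members and 9743 loci of all 15125 passed. The exception was the mitochondrial methionine enzyme Mars2, which was listed above 0 in 3 libraries, at 0.365, 0 and 0 FPKM in KIKO activated cells, 0, 0.558 and 0 FPKM in KI activated cells, 0, 0 and 0 FPKM in KIKO naive cells and 0, 0 and 0.317 FPKM in KI naive cells.

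The groups were KIKO activated, KI activated, KIKO naive and KI naive, with 3 libraries each. All cells were from mouse spleen, and KI and KIKO are the only names the labels give to the genotypes, with no allele stated. Activated cells had spent 16 h with Dynabeads that bind CD3 and CD28, a substitute for antigen and co-stimulation. For the KIKO activated group the sample titles leave out CD4. No label says whether the libraries of a group came from separate animals, so the p-values measure the spread between these libraries, which may be technical. The series as a whole concerns T cells with a faulty proteasome, and the question here is how the tRNA-charging enzymes differ between KIKO and KI cells, at rest and after stimulation.

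The libraries listed 9771 to 11102 loci, and no read numbers were given, so the depth behind each value is unknown. Replicates of a group correlated at 0.952 to 0.983 (Pearson r of log2 values across loci). The 5 T cell markers listed (of 7) summed to 444, 385 and 604 FPKM in KIKO activated cells, against 861, 781 and 778 FPKM in KI activated cells, and to 734, 750.5 and 889 FPKM in KIKO naive cells, against 1060.2, 998 and 1187 FPKM in KI naive cells, so they were lower in every KIKO library than in any KI library at the same state. Cd4 was present in every library, at 96.2, 86.4 and 138 FPKM in KIKO activated, 182, 171 and 182 FPKM in KI activated, 154, 137 and 172 FPKM in KIKO naive and 203, 186 and 221 FPKM in KI naive cells, and it was called lower in activated KIKO than in activated KI cells. The symbols of the T cell markers Lck and Cd28 were absent from all 12 files and taken as 0. Some loci carry the name of a neighbouring gene, so an absent symbol does not show that a gene was silent. The same limit holds for the other markers given as 0 throughout. The activation marker Il2ra stood at 52.6, 65.9 and 40.7 FPKM in KIKO activated cells, against 107, 108 and 104 FPKM in KI activated cells, and at 1.25 FPKM or less in naive cells of both genotypes. Cd69, the other activation marker, overlapped between activated groups, with 161, 197 and 113 FPKM in KIKO activated cells, against 167, 199 and 154 FPKM in KI activated cells (-0.17 ± 0.18, adjusted p = 0.48). It was called higher in naive KIKO cells, with 10.3, 9.31 and 11.2 FPKM in KIKO naive cells, against 5.75, 4.97 and 6.36 FPKM in KI naive cells (0.75 ± 0.18, adjusted p = 0.02). Second libraries of both KIKO groups stood apart: the summed level of 6 myeloid markers was 162.3 FPKM in KIKO activated 2 and 202 FPKM in KIKO naive 2, against 0 to 5.97 FPKM in the other 10 libraries, with Cd14 and Itgam at 0 throughout. The same 2 libraries held 5 NK cell markers at 10.3 and 11.6 FPKM in sum, against 0 to 0.770 FPKM elsewhere. The sums of 5 B cell markers reached 2.51 FPKM in KIKO activated, 0.152 FPKM in KI activated, 2.78 FPKM in KIKO naive and 2.66 FPKM in KI naive cells, with Ms4a1 and Pax5 at 0 throughout, and those of 6 erythroid markers at most 3.36 FPKM. The 2 CD8 T cell markers, nearly all Cd8b1, summed to 9.83, 8.67 and 10.3 FPKM in KIKO activated cells, against 11.1, 11.4 and 12.9 FPKM in KI activated cells. In naive cells the sums were 12.6, 16.1 and 12.6 FPKM in KIKO, against 6.51, 7.38 and 8.12 FPKM in KI libraries. Cd8b1 was called higher in naive KIKO cells (0.82 ± 0.12, adjusted p = 0.0022) and had a called interaction (-1.12 ± 0.18, adjusted p = 0.0015). The part of these markers in the results was not tested, and counts without both second KIKO libraries are given for the comparisons of activated cells, of naive cells and of stimulation in KIKO cells. In such bulk samples fewer cells of a type and less RNA per cell cannot be told apart.

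Stimulation raised the whole cytosolic set in both genotypes. All 16 cytosolic synthetases rose in KIKO cells and all 16 in KI cells, with median log2 differences of 1.12 in KIKO and 1.57 in KI cells. Among all loci tested, 25.1% were called higher in KIKO and 32.2% in KI cells, with medians of 0.0043 and -0.0058. The loci of the 16 genes summed to 858, 909 and 679 FPKM in KIKO activated cells, against 351, 345 and 363 FPKM in KIKO naive cells. In KI cells the sums were 858, 990.4 and 1128 FPKM in activated libraries, against 317, 319.8 and 349 FPKM in naive ones. Every activated sum was above every naive sum in both genotypes. The sums include the adjacent gene Mcm6, which shares the Dars locus. The start of Mcm6 had 40.3, 35.7 and 34.4 FPKM in KIKO activated and 83.3, 104 and 143 FPKM in KI activated cells. Before stimulation it had 28.5, 30.2 and 27.0 FPKM in KIKO naive and 31.1, 30.7 and 32.0 FPKM in KI naive cells. Fold differences here and below are on the scale of log2(FPKM + 1), which understates the change of genes at low level, and p-values are from limma with Benjamini-Hochberg adjustment over the 9743 loci, called under 0.05.

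Mars1, the methionine enzyme, and Vars, the valine enzyme, had the largest rises in KI cells. Mars1 (chr10:127132502-127147655, minus strand, GRCm39) had 36.3, 47.0 and 51.0 FPKM in KI activated cells, against 9.25, 10.1 and 10.1 FPKM in KI naive cells, a log2 difference of 2.07 ± 0.14 (SE, adjusted p = 2.2e-07). In KIKO cells it had 37.4, 32.4 and 27.1 FPKM after stimulation, against 12.4, 10.7 and 10.7 FPKM before, a difference of 1.43 ± 0.14. Activated and naive libraries did not overlap in either genotype. Vars (chr17:35219963-35233753, plus strand) differed by 2.07 ± 0.13 between activated and naive KI cells and by 0.62 ± 0.13 between activated and naive KIKO cells. The smallest rise of the cytosolic set in KI cells was that of Sars, the serine enzyme, at 0.51 ± 0.11, and in KIKO cells that of the Dars locus, at 0.35 ± 0.12, whose call was lost without any of 5 libraries (KIKO naive 1, 2 or 3, KIKO activated 1 or 2, adjusted p = 0.058 to 0.11).

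The mitochondrial set moved less and in both directions. Of its 14 tested members 4 rose and 3 fell in KIKO cells on stimulation (median log2 difference 0.06), and 6 rose and 1 fell in KI cells (median 0.36). In KIKO cells that is 28.6% higher and 21.4% lower, near the shares of all loci (25.1% higher and 22.2% lower), and in KI cells 42.9% higher and 7.14% lower, where all loci had 32.2% and 29.5%. Aars2, Lars2, Sars2 and Yars2 rose in both genotypes. Sars2, the mitochondrial serine enzyme, differed by 0.78 ± 0.14 in KIKO and 1.19 ± 0.14 in KI cells, and Yars2, the tyrosine enzyme, by 0.96 ± 0.17 in KIKO and 1.44 ± 0.17 in KI cells. Ears2 and Rars2, the glutamate and arginine enzymes, were called on stimulation of KI cells, at 0.81 ± 0.16 and 1.14 ± 0.18, and had values of 0.23 ± 0.16 and 0.06 ± 0.18 in KIKO cells. Hars2, the histidine enzyme, fell in both genotypes, to 13.0, 10.9 and 11.8 FPKM in KIKO activated cells, against 14.6, 15.4 and 15.5 FPKM in KIKO naive cells, and to 10.4, 10.4 and 9.68 FPKM in KI activated cells, against 13.7, 12.3 and 12.6 FPKM in KI naive cells. Iars2 and Wars2, for isoleucine and tryptophan, fell in KIKO cells (-0.39 ± 0.09 and -0.86 ± 0.24). Without both second KIKO libraries, Iars2 was the one member still called lower on stimulation of KIKO cells, and 18 members were called higher in place of 20. Calls over all loci fell too, to 1971 higher and 1627 lower, in place of 2448 and 2161. The KIKO calls of Aars2 and Lars2 were lost without KIKO naive 1, KIKO naive 3 or KIKO activated 2 (adjusted p = 0.060 to 0.14).

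Over all members, 20 of 30 rose and 3 fell on stimulation of KIKO cells, where 25.1% of all loci tested were called higher and 22.2% lower. In KI cells 22 rose and 1 fell, where 32.2% of all loci were called higher and 29.5% lower. The median difference of the 30 members was 0.69 in KIKO and 1.36 in KI cells, beside medians of all loci of 0.0043 and -0.0058.

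**Figure D1:**
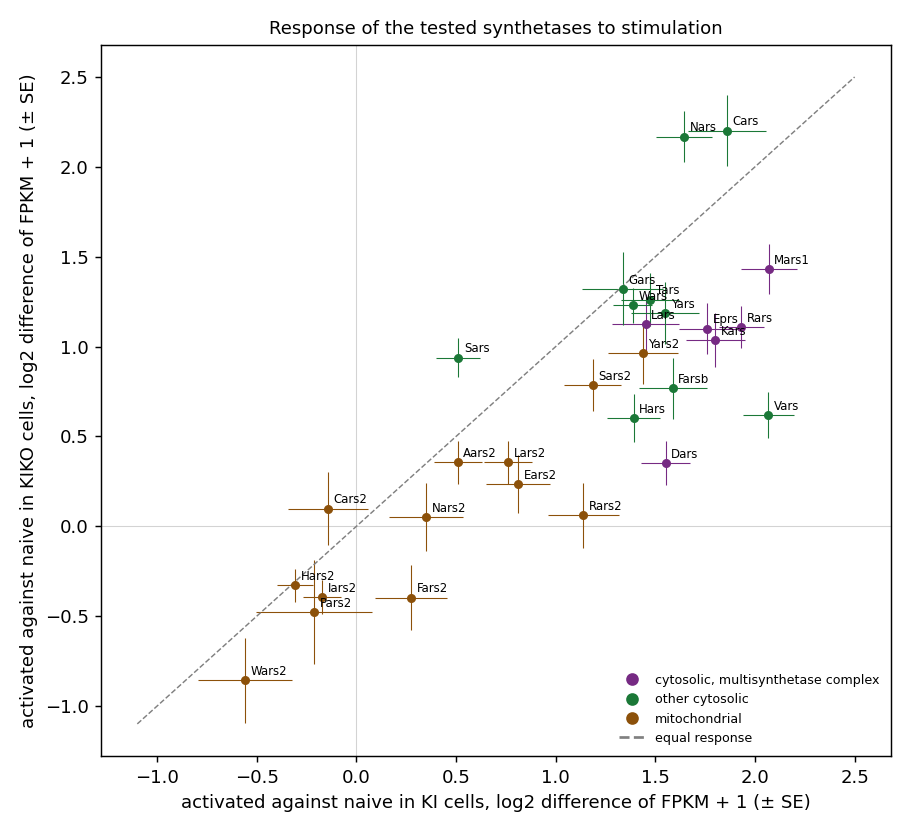
Response of the synthetases to stimulation, 1 of the tested members not being drawn, as the log2 difference between activated and naive cells in KI cells (x axis) and in KIKO cells (y axis), each point 1 gene with its SE, coloured by set; the dashed line marks an equal response. Nars, Cars, Sars and Cars2 lie above the line and the other genes drawn lie below it, with Vars, Dars and Rars2 farthest from it.

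Between activated KIKO and activated KI cells the cytosolic set split. In activated KIKO cells 8 cytosolic synthetases were lower (Dars, Vars, Hars, Kars, Rars, Farsb, Mars1 and Eprs) and 3 were higher (Nars, Cars and Sars). With the mitochondrial Rars2 this made 9 of 30 members lower (30.0%), where 19.3% of all loci were called lower, and 3 higher (10.0%), where 20.7% of all loci were called higher. The median log2 difference was -0.16 over the 30 members and 0.04 over all loci. The summed T cell markers and Cd4 were also lower in these KIKO libraries, and their part in the result was not tested.

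**Figure D2:**
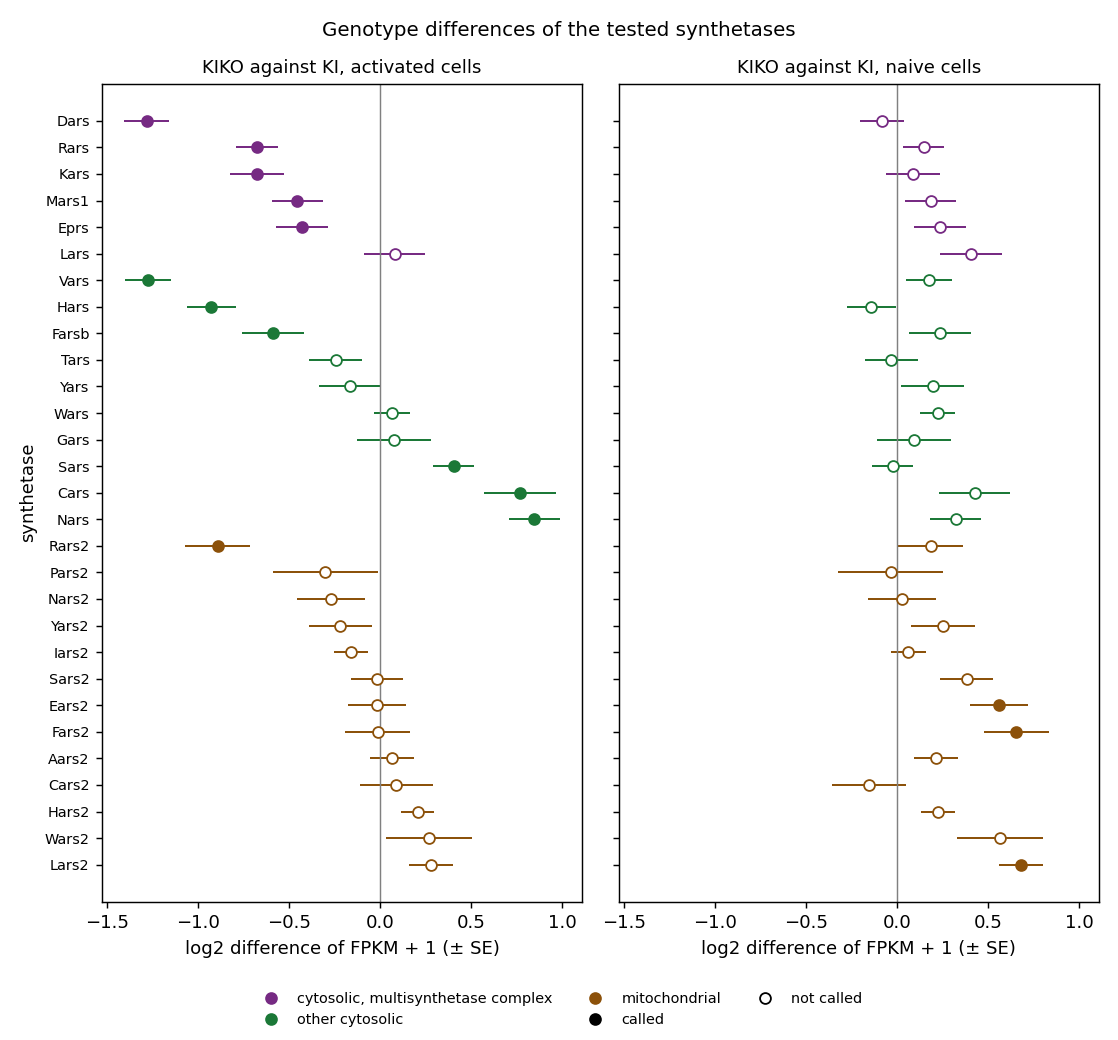
Log2 difference between KIKO and KI cells (x axis, ± SE) of the tested synthetases (rows; 1 is not drawn), in activated cells (left) and naive cells (right); filled points were called. In activated cells 5 of 6 complex synthetases lie left of 0 and are filled, while in naive cells the 3 filled points are mitochondrial.

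Of the 6 synthetases of the multisynthetase complex that are members, 5 were lower in activated KIKO cells and 0 higher. Among all loci 19.3% were called lower and 20.7% higher. Kars, which charges lysine tRNA (chr8:112720075-112737907, minus strand), had 80.3, 82.2 and 58.4 FPKM in KIKO activated cells, against 103, 120.4 and 129 FPKM in KI activated cells. The groups did not overlap, and the log2 difference was -0.68 ± 0.15 (SE, adjusted p = 0.0033). Rars, the arginine enzyme (chr11:35699208-35725366, minus strand), had 39.1, 44.2 and 32.2 FPKM in KIKO activated cells, against 54.8, 65.6 and 65.3 FPKM in KI activated cells, again without overlap, a difference of -0.68 ± 0.11 (SE, adjusted p = 0.00062). Mars1 had 37.4, 32.4 and 27.1 FPKM in KIKO activated cells, against 36.3, 47.0 and 51.0 FPKM in KI activated cells. The highest KIKO library exceeded the lowest KI library, and the difference was -0.45 ± 0.14 (SE, adjusted p = 0.021). Eprs, which charges both glutamate and proline tRNAs (chr1:185095196-185142382, plus strand), likewise overlapped, with 48.9, 60.6 and 39.3 FPKM in KIKO activated cells, against 56.3, 67.6 and 75.6 FPKM in KI activated cells, a difference of -0.43 ± 0.14 (SE, adjusted p = 0.031). Lars, the leucine enzyme, was not called, with 32.4, 43.2 and 28.3 FPKM in KIKO activated cells, against 28.7, 31.8 and 36.7 FPKM in KI activated cells, a difference of 0.08 ± 0.17. The calls of Mars1 and Eprs rested on single libraries: both were lost without KI activated 2, KI activated 3 or KIKO activated 3, and that of Eprs also without KIKO activated 1 (adjusted p = 0.074 to 0.093 for Mars1 and 0.072 to 0.13 for Eprs).

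Dars, the aspartate enzyme of the complex, had the largest difference of all members, but its locus is not Dars alone. The locus (chr1:128262500-128345146, minus strand) is 82.7 kb long, against 53.7 kb for the Dars gene in GENCODE M21 (GRCm38), and of its 11 introns 5 match lengths of Mcm6, the adjacent gene for a subunit of the replicative helicase, and 2 match Dars. As a whole the locus had 72.5, 67.9 and 62.4 FPKM in KIKO activated cells, against 136, 164 and 204 FPKM in KI activated cells, a difference of -1.28 ± 0.12 (SE, adjusted p = 1.1e-05). The start of Dars itself (chr1:128344889-128345146, minus strand) had 32.2, 32.1 and 28.0 FPKM in KIKO activated cells, against 52.8, 59.7 and 61.1 FPKM in KI activated cells. The start of Mcm6 had 40.3, 35.7 and 34.4 FPKM in KIKO activated cells, against 83.3, 104 and 143 FPKM in KI activated cells. Both starts were thus lower in every KIKO library than in any KI library. With the events of Dars alone, which was chosen after the data were seen, the log2 difference was -0.89 (adjusted p = 3.3e-05), and Vars then had the largest difference of the lower members.

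Outside the complex, Vars, Hars and Farsb were lower. Vars had 28.4, 31.1 and 23.8 FPKM in KIKO activated cells, against 58.2, 68.6 and 79.4 FPKM in KI activated cells, a log2 difference of -1.27 ± 0.13 (SE, adjusted p = 1.5e-05). Every KIKO library was below 32 FPKM and every KI library above 58 FPKM. Hars, the histidine enzyme, shares a start region with Hars2 on the opposite strand. It had 28.8, 31.3 and 25.0 FPKM in KIKO activated cells, against 48.4, 59.2 and 57.3 FPKM in KI activated cells, a difference of -0.93 ± 0.13 (SE, adjusted p = 0.0002). Hars2 itself differed by 0.20 ± 0.09 (adjusted p = 0.096). Farsb, the beta subunit of the phenylalanine enzyme (chr1:78401705-78465496, minus strand), had 22.7, 27.0 and 18.7 FPKM in KIKO activated cells, against 27.4, 35.9 and 41.3 FPKM in KI activated cells. The groups came close to each other, and the call (-0.59 ± 0.17, adjusted p = 0.016) was lost without KI activated 2, KI activated 3 or KIKO activated 3 (adjusted p = 0.053 to 0.075).

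Cars, Sars and Nars were higher in activated KIKO cells. Cars, the cysteine enzyme (chr7:143115485-143153827, minus strand), had 46.0, 57.9 and 31.6 FPKM in KIKO activated cells, against 23.3, 26.0 and 26.9 FPKM in KI activated cells. All KIKO libraries were above all KI libraries, KIKO activated 3 by the least, and the difference was 0.77 ± 0.20 (SE, adjusted p = 0.0081). Sars (chr3:108332181-108352472, minus strand) had 78.3, 88.0 and 66.7 FPKM in KIKO activated cells, against 60.9, 52.4 and 61.6 FPKM in KI activated cells, a difference of 0.40 ± 0.11 (SE, adjusted p = 0.012), which was not called without KI activated 2 (adjusted p = 0.060). In naive cells the differences were 0.43 for Cars, without overlap of the groups, and -0.02 for Sars, with overlap, and neither was called.

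Nars, the asparagine enzyme on chromosome 18, had the largest positive difference, and this depended on which transcripts were counted. Its level was taken from an internal exon, with 165, 125 and 114 FPKM in KIKO activated cells, against 63.8, 71.6 and 86.6 FPKM in KI activated cells, a difference of 0.85 ± 0.14 (SE, adjusted p = 0.00055). Transcripts that run to the full-length end (chr18:64632726-64633720) had 82.4, 124 and 56.6 FPKM in KIKO activated cells, against 63.7, 71.4 and 86.3 FPKM in KI activated cells. These overlapped, and the difference on that end alone, chosen after the data were seen, was 0.19 (adjusted p = 0.53). A short end inside the gene (chr18:64638096-64638449) had 82.6, 0.548 and 56.9 FPKM in KIKO activated cells, against 0.138, 0.198 and 0.321 FPKM in KI activated cells. It was high in KIKO activated 1 and 3 and at 0.548 FPKM or less in the other 10 libraries, 0.126 FPKM being the highest naive value. From summed transcript starts the difference was 0.35 (adjusted p = 0.14).

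**Figure D3:**
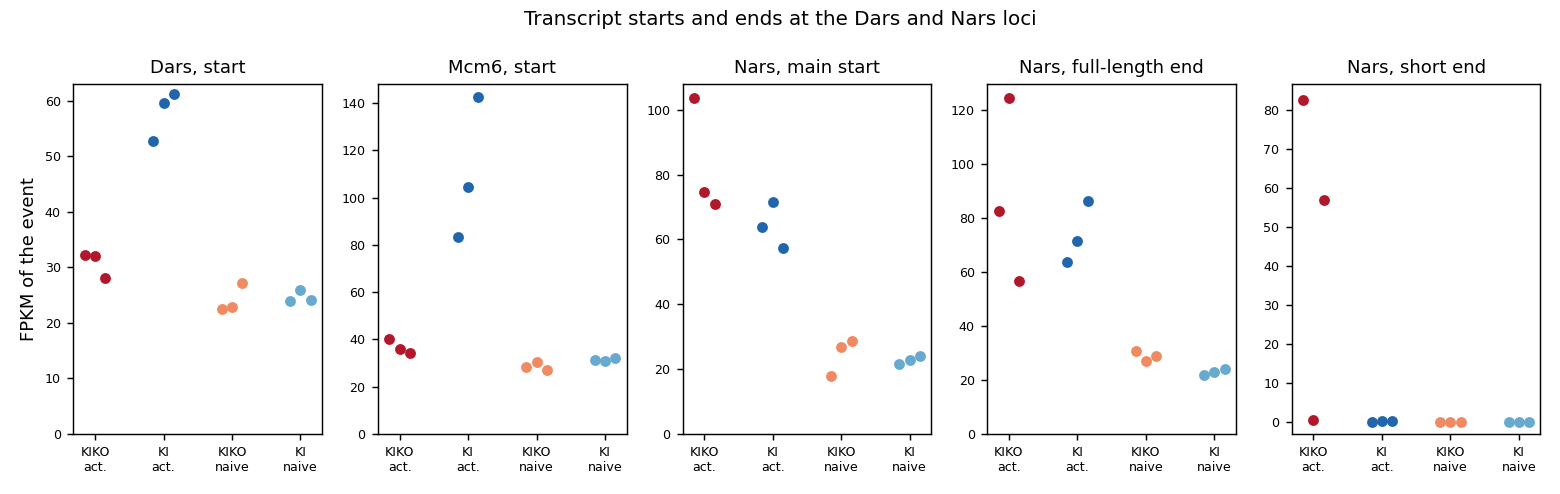
FPKM of single transcript starts and ends at the Dars and Nars loci (y axes, each from its own scale) in the 4 groups (x axis), each point 1 library. The starts of Dars and of the adjacent Mcm6 are lower in all 3 KIKO activated libraries than in the KI activated ones, and the short end of Nars is above 50 FPKM in 2 of the 12 libraries.

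The other cytosolic synthetases were not called. Gars, the glycine enzyme, had 90.8, 115 and 80.0 FPKM in KIKO activated cells, against 74.2, 85.5 and 112 FPKM in KI activated cells, and a difference of 0.08 ± 0.20. Wars differed by 0.07 ± 0.10, Yars by -0.17 ± 0.17 and Tars by -0.24 ± 0.15. These are the enzymes for tryptophan, tyrosine and threonine, and the KIKO and KI libraries of all 4 overlapped. Library 3 was the lowest of the KIKO activated group for 22 of the 30 tested members, and library 1 was the lowest of the KI activated group for 20.

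Among mitochondrial synthetases Rars2, the arginine enzyme, was the only one of 14 called in activated cells. That is 7.14% lower and 0% higher, where 19.3% of all loci were called lower and 20.7% higher. Rars2 (chr4:34614945-34660167, plus strand) had 6.34, 5.52 and 5.60 FPKM in KIKO activated cells, against 10.6, 12.5 and 11.9 FPKM in KI activated cells, a difference of -0.89 ± 0.18 (SE, adjusted p = 0.0019). The KIKO activated libraries overlapped the naive ones, which had 5.46, 7.63 and 4.00 FPKM in KIKO and 5.03, 5.47 and 3.87 FPKM in KI cells. The difference was larger but not called where only transcript ends were counted (-1.23, adjusted p = 0.26). Lars2, for leucine, had 5.72, 7.58 and 5.92 FPKM in KIKO activated cells, against 5.09, 5.29 and 4.86 FPKM in KI activated cells, without overlap and not called (0.28 ± 0.12, adjusted p = 0.088). limma called 0 of the 14 higher, and 2 were higher at an unadjusted p under 0.05. The set summed to 107, 104 and 91.6 FPKM in KIKO activated cells, against 104, 116 and 108 FPKM in KI activated cells, with overlap.

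**Figure D4:**
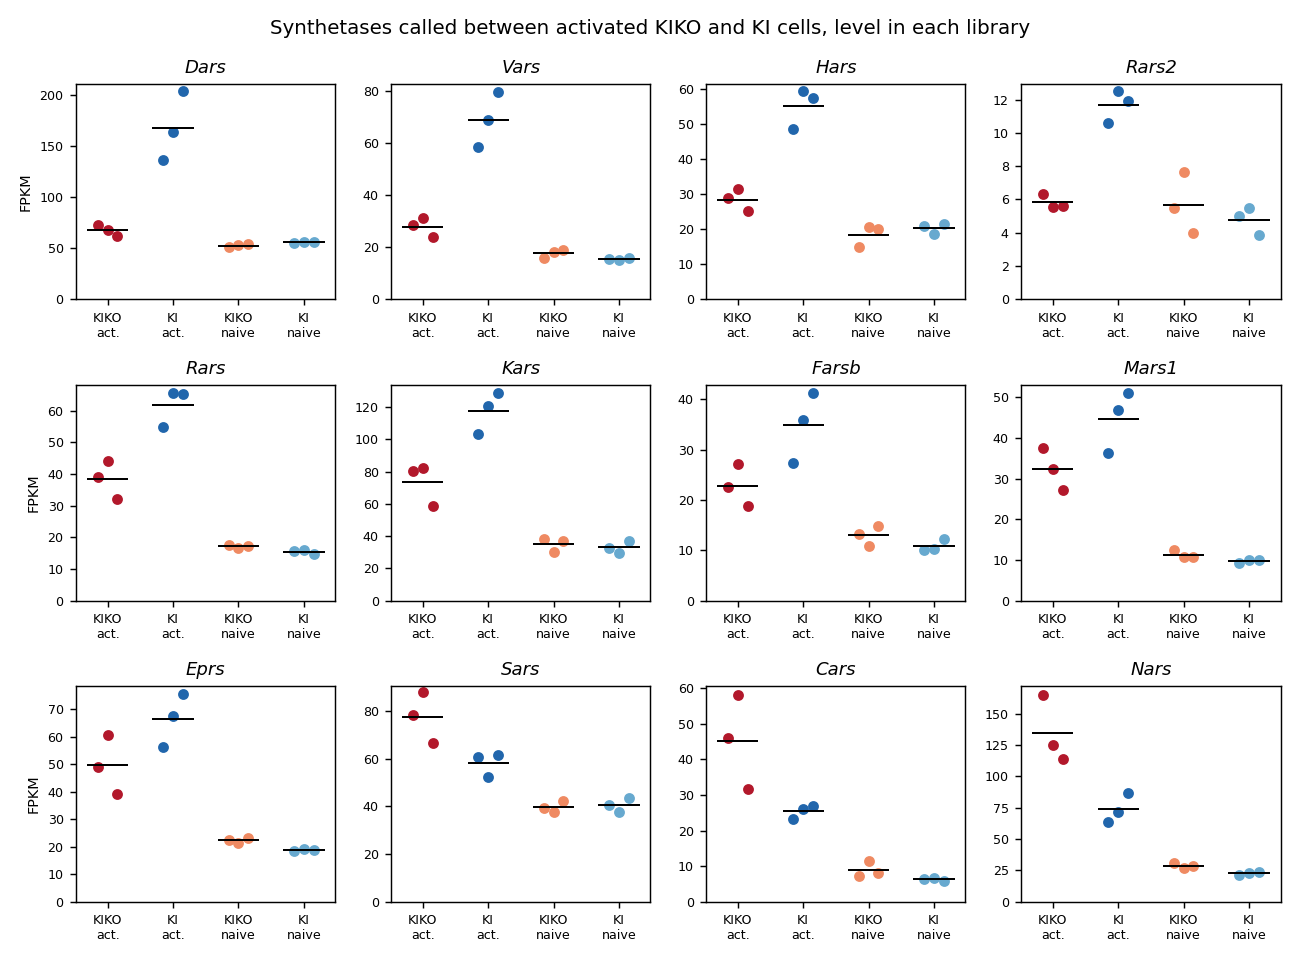
FPKM (y axes, from 0) of the 12 synthetases called between activated KIKO and KI cells, in the 4 groups (x axis), each point 1 library and each line the group mean. In 9 genes KIKO activated means lie below KI activated means, and the naive groups lie lower than both activated groups in every gene but Rars2, where KIKO activated and naive libraries overlap.

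Without both second KIKO libraries the members called lower in activated KIKO cells were 11 and those called higher 4. Calls over all loci rose too, to 1970 lower and 2186 higher, in place of 1877 and 2021. Rescaling every library to an equal sum gave 7 lower and 5 higher, and gave a median of all loci of 0.15 in place of 0.04, with 2626 loci higher and 1419 lower in place of 2021 and 1877. No called member changed its sign under any setting tried.

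The response to stimulation itself differed between the genotypes for 9 members. The interaction, which is the KIKO response minus the KI response, was called lower for Vars, Dars, Rars2, Rars, Farsb, Hars, Kars, Eprs and Mars1, the same 9 genes that were lower in activated KIKO cells. That makes 30.0% of the members, where 11.6% of all loci were called lower and 8.99% higher. limma called 0 members higher, and 2 were higher at an unadjusted p under 0.05. Both comparisons use the activated libraries, so the shared genes are not independent support. The markers Cd8b1 (-1.12) and Cd69 (-0.92, adjusted p = 0.022) also had lower interactions, and their part in the result was not tested. The response of Vars was 0.62 in KIKO and 2.07 in KI cells, an interaction of -1.45 ± 0.18 (SE, adjusted p = 0.00048). For Rars2 the response was 0.06 in KIKO and 1.14 in KI cells, with an interaction of -1.08 ± 0.25 (SE, adjusted p = 0.011), not called where only transcript ends were counted (-0.87, adjusted p = 0.64), nor was the KI response there (adjusted p = 0.083). Rars responded by 1.11 in KIKO and 1.93 in KI cells, an interaction of -0.82 ± 0.16 (SE, adjusted p = 0.0048). Vars and Rars thus rose less in KIKO than in KI cells, and Rars2, called in KI cells, was not called in KIKO cells, where its groups overlapped. The interactions of Hars (-0.79 ± 0.19) and Dars (-1.20 ± 0.17, or -0.86 from events of Dars alone) were called under every setting. Those of Kars (-0.76 ± 0.21), Farsb (-0.82 ± 0.24), Mars1 (-0.64 ± 0.20) and Eprs (-0.66 ± 0.20) lost their call without any of 6 libraries for Kars, 8 for Farsb and 9 each for Mars1 and Eprs. These include KI naive 1 and 2 and KI activated 2 and 3 for all 4 genes, with adjusted p over all the libraries left out of 0.051 to 0.097. Without KI naive 1, KI naive 2, KI activated 2, KI activated 3 or KIKO naive 3, 5 members had a lower interaction. Over all loci 747 to 970 were then called lower, in place of 1134. A higher interaction was called for 1 member without KI activated 3 and for 2 without KIKO activated 3. There 614 and 779 of all loci were called higher, in place of 876. Cars (0.34 ± 0.28), Nars (0.52 ± 0.20) and Sars (0.43 ± 0.16) had larger responses in KIKO cells that were not called.

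Few members were called in naive cells, in which the CD8 marker Cd8b1 and Cd69 were also higher in KIKO libraries; their part in the result was not tested. Of 30, 3 were called higher in KIKO naive cells and 0 lower, 10.0% higher where 6.46% of all loci were called higher and 3.9% lower, which is near the background. At an unadjusted p under 0.05, limma had 9 higher and 0 lower. The median difference of the members was 0.19, beside 0.05 over all loci. The 3 were mitochondrial. Lars2 (chr9:123195992-123291729, plus strand) had 4.53, 5.03 and 4.71 FPKM in KIKO naive cells, against 2.65, 2.72 and 2.40 FPKM in KI naive cells, without overlap, a difference of 0.68 ± 0.12 (SE, adjusted p = 0.0052) that was called under every setting. Fars2, the mitochondrial phenylalanine enzyme, had 5.24, 9.31 and 5.77 FPKM in KIKO naive cells, against 3.97, 4.21 and 3.30 FPKM in KI naive cells, a difference of 0.66 ± 0.18 (SE, adjusted p = 0.04). Its highest value is that of KIKO naive 2, without which the difference was 0.43 (adjusted p = 0.092). Ears2 had 3.13, 3.51 and 4.46 FPKM in KIKO naive cells, against 2.14, 1.99 and 2.39 FPKM in KI naive cells, a difference of 0.56 ± 0.16 (SE, adjusted p = 0.045). The calls of Fars2 and Ears2 were each lost without any of 8 of the 12 libraries (adjusted p = 0.052 to 0.14), among them KI naive 1, 2 and 3 and KIKO naive 2 and 3. Scaling by median ratios gave 433 loci higher and 546 lower in place of 629 higher and 380 lower, quantile normalization 487 and 498, and an equal sum 1123 and 262. None of the 16 cytosolic members was called by limma, and 3 were higher at an unadjusted p under 0.05. Wars had 12.9, 11.5 and 13.2 FPKM in KIKO naive cells, against 9.68, 10.7 and 11.4 FPKM in KI naive cells (0.22 ± 0.10).

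Of the 3 scaffolds of the multisynthetase complex 2 were lower in activated KIKO cells. Aimp2, which holds several of the enzymes together, had 11.6, 12.6 and 8.03 FPKM in KIKO activated cells, against 19.8, 26.5 and 27.7 FPKM in KI activated cells, a difference of -1.14 ± 0.21 (SE, adjusted p = 0.0012). Eef1e1, which docks Mars1, had 7.52, 9.43 and 6.11 FPKM in KIKO activated cells, against 10.7, 13.2 and 15.5 FPKM in KI activated cells, a difference of -0.70 ± 0.18 (SE, adjusted p = 0.0077). Aimp1 was not called (-0.22 ± 0.15), with 73.1, 72.6 and 66.7 FPKM in KIKO activated cells, against 72.0, 79.0 and 98.0 FPKM in KI activated cells. In all, 7 of the 9 measured complex genes were lower in activated KIKO cells and 0 higher, also at an unadjusted p under 0.05, with a median difference of -0.68. Over all loci 19.3% were called lower and 20.7% higher. The 7 include the Dars locus, which also holds Mcm6. Iars and Qars, also part of the complex, have no locus under their own symbols and are not among the 9.

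The next genes work beside the synthetases or use their product. Of 11 tested accessory genes 4 were lower in activated KIKO cells and 0 higher (1 at an unadjusted p under 0.05), with a median of -0.47, where 19.3% of all loci were called lower and 20.7% higher. These were Gatc, a subunit of the mitochondrial amidotransferase that makes glutaminyl-tRNA (-0.96 ± 0.18, adjusted p = 0.0013), Dtd1, which removes D-amino acids from tRNA (-0.68 ± 0.13), the peptidyl-tRNA hydrolase Ptrh2 (-0.65 ± 0.16) and Pstk, a kinase of the selenocysteine pathway (-0.47 ± 0.14). Xpot, the export receptor for tRNA, was not called in activated cells (0.29 ± 0.14) and was called higher in naive ones (0.47 ± 0.14, adjusted p = 0.048). Of 8 elongation factors 4 were lower and 0 higher, against the same shares of all loci, with a median of -0.28 and 0 higher at an unadjusted p under 0.05. They were Eef1d (-0.72 ± 0.19) and Eef1g (-0.36 ± 0.12), subunits of the cytosolic exchange factor, and mitochondrial Tufm (-0.70 ± 0.12) and Tsfm (-0.54 ± 0.15). Eef1a1, which carries aminoacyl-tRNA to the ribosome, differed by 0.00 ± 0.11 and Eef2 by 0.07 ± 0.11.

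In the ATF4 pathway most genes were higher in the same cells. Of 20 tested among 26 on the list, 13 were higher in activated KIKO cells and 1 lower, with a median difference of 1.04. Among all loci tested, 20.7% were called higher and 19.3% lower. Atf4 itself had 281, 333 and 217 FPKM in KIKO activated cells, against 129, 137 and 139.7 FPKM in KI activated cells, a difference of 1.01 ± 0.14 (SE, adjusted p = 0.00014). Asns, which makes asparagine and is a known ATF4 target, had 7.85, 17.7 and 5.66 FPKM in KIKO activated cells, against 1.68, 1.13 and 1.76 FPKM in KI activated cells (2.04 ± 0.31, adjusted p = 0.00028). All KIKO libraries were above all KI libraries for both genes. Trib3, a pseudokinase induced by the pathway, had 18.7, 24.6 and 14.9 FPKM in KIKO activated cells, against 1.61, 0.966 and 1.62 FPKM in KI activated cells, the largest difference of the list (3.08 ± 0.17). It had 14.3, 15.4 and 15.0 FPKM in KIKO naive cells, against 16.3, 16.3 and 19.0 FPKM in KI naive cells, so the low values were those of the KI activated libraries. Sesn2, an inhibitor of mTORC1, differed by 2.99 ± 0.29. Slc7a11, the cystine transporter, had 2.44, 6.92 and 1.25 FPKM in KIKO activated cells and was absent from the other 9 files, where it was taken as 0. It passed the filter of at least 1 FPKM in 3 libraries only through the KIKO activated group, so its place among the 20 is no support. Ddit3, the transcription factor CHOP, differed by 1.40 ± 0.16, and Slc3a2, the heavy chain of amino acid exchangers, by 1.60 ± 0.17. Ddit3 had 36.8, 26.3 and 38.9 FPKM in KIKO activated cells, against 25.2, 27.4 and 31.9 FPKM in KIKO naive cells, with overlap. In KI cells Ddit3 had 13.2, 12.3 and 11.0 FPKM after stimulation, against 18.5, 21.6 and 25.4 FPKM before. The exception was Eif2s1, the initiation factor subunit whose phosphorylation turns the pathway on (-0.84 ± 0.12, adjusted p = 0.00018). The serine synthesis genes Phgdh (-0.08 ± 0.22) and Psat1 (-0.37 ± 0.22) were not called, nor was Eif2ak4, the kinase that senses uncharged tRNA (-0.21 ± 0.24). In naive cells limma called 0 of the 20 higher (1 at an unadjusted p under 0.05) and 1 lower. There 6.46% of all loci were called higher and 3.9% lower.

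Of 11 tested genes of MYC and mTORC1, 4 were higher and 3 lower in activated KIKO cells, with a median of 0.08. Over all loci 20.7% were called higher and 19.3% lower. Myc had 34.4, 44.2 and 27.6 FPKM in KIKO activated cells, against 85.3, 99.0 and 118 FPKM in KI activated cells, a difference of -1.50 ± 0.17 (SE, adjusted p = 3.6e-05). Every KIKO library was below every KI library. Its partner Max was lower too (-0.62 ± 0.08), and so was Lamtor1, which anchors mTORC1 at the lysosome (-0.54 ± 0.07). Mxi1, an antagonist of MYC (0.69 ± 0.13), Rptor, a subunit of mTORC1 (1.01 ± 0.14), its activator Rheb (0.36 ± 0.11) and Sesn2 were higher.

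**Figure D5:**
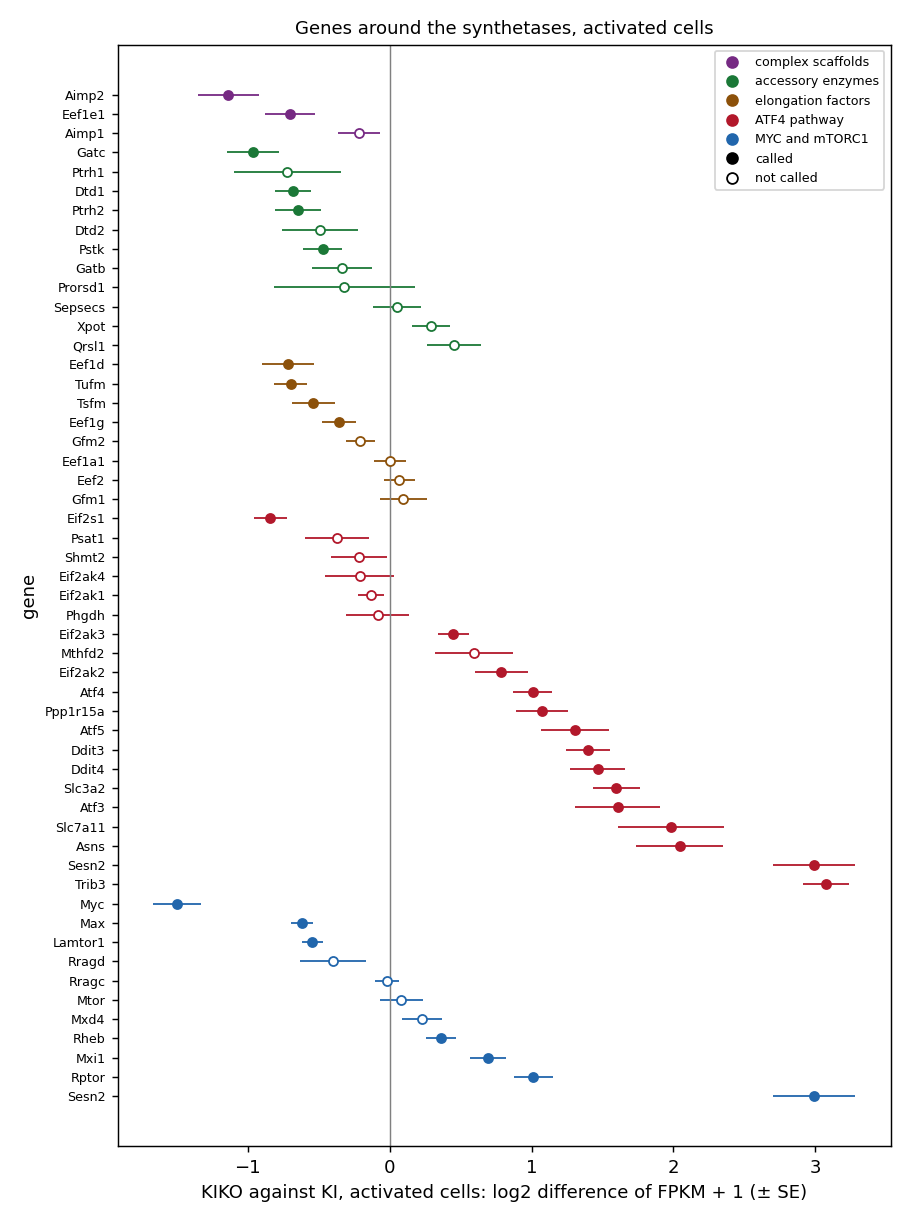
Log2 difference between activated KIKO and activated KI cells (x axis, ± SE) of the tested genes of 5 lists (rows, coloured by list; Sesn2 is on 2 lists, and Slc7a11 is absent from the KI activated files and taken as 0); filled points were called. Genes of the ATF4 list reach 3.08 (Trib3), and Myc lies at -1.50.

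Some synthetases stand in the files under another name and were found after the data were seen by matching intron lengths to GENCODE M21. They are not counted among the 31 members. A locus named Exosc6 (chr8:111756410-111784296, plus strand, GRCm39) matches Aars, the alanine enzyme, in 4 of 4 introns and Exosc6 in 0. Intron lengths cannot show whether a gene without introns lies in the same locus. The locus is 27.9 kb long, against 24.5 kb for Aars, so it may hold more than Aars. This locus had 61.9, 82.7 and 42.2 FPKM in KIKO activated cells, against 33.3, 36.1 and 38.6 FPKM in KI activated cells. All KIKO libraries were above all KI libraries, a difference of 0.73 ± 0.18 (SE, limma adjusted p = 0.0067). Before stimulation it had 10.2, 9.74 and 9.59 FPKM in KIKO naive cells, against 8.71, 8.22 and 7.81 FPKM in KI naive cells (0.23 ± 0.18). A locus named Mir7069 matches Farsa, the alpha subunit of the phenylalanine enzyme, in 3 of 5 introns. It had 43.6, 46.6 and 37.0 FPKM in KIKO activated cells, against 45.3, 50.4 and 56.0 FPKM in KI activated cells, and was not called (-0.25 ± 0.12). Introns of Qars, Tars2 and Tarsl2 were found at loci that also match a neighbouring gene, and these, with Iars and Vars2, are not analysed here.

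ATF4 binds the C/EBP-ATF element and MYC the E-box, and both were looked for in promoters. Sequences of 300 bases that span the RefSeq start (GRCm38.p6) were found for 21 of the 31 members. Those without one include Cars, Hars, Hars2, Lars, Nars, Pars2, Rars, Vars and Wars. The letters TGATGNAA, the core of the C/EBP-ATF element, were searched on both strands and occur in 3.97% of all 32851 promoters. They occur in 3 of the 21 members, Gars, Tars and Yars, and in the promoter of Aars. None of the 6 members with a promoter in the table that were lower in activated KIKO cells holds them, and neither does Sars. The palindrome CACGTG, the E-box, occurs in 7.15% of all promoters and in Ears2, Farsb and Tars, and in Aars. A match describes letters only. The 4 promoters with the first motif are shown with those of Kars, lower in KIKO cells and without either, and Farsb, lower with an E-box; capitals mark the matches to either motif.
Aars (chr8:111033592-111033891, plus strand): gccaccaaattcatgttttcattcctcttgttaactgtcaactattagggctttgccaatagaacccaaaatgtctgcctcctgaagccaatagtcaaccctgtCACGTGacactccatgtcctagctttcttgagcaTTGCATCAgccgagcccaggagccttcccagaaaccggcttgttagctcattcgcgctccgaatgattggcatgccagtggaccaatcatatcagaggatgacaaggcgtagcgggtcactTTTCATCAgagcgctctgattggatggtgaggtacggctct
Gars (chr6:55037751-55038050, plus strand): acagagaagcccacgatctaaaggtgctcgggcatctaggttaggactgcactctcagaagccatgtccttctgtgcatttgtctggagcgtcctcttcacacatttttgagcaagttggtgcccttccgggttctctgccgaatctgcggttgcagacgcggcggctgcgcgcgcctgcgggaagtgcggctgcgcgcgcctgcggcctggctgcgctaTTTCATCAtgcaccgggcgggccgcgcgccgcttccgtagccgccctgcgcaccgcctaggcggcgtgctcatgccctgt
Tars (chr15:11399609-11399908, minus strand): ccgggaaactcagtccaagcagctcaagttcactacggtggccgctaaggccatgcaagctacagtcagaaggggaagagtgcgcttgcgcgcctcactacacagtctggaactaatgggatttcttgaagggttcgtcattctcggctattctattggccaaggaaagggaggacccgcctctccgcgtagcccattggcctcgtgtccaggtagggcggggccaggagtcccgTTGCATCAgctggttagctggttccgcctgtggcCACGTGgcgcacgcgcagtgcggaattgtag
Yars (chr4:129189653-129189952, plus strand): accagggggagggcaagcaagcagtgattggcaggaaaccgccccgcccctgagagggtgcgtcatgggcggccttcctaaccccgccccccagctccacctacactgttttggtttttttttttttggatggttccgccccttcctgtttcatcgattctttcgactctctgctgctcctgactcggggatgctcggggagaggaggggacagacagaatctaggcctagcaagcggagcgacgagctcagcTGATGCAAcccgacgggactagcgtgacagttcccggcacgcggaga
Kars (chr8:112011305-112011604, minus strand): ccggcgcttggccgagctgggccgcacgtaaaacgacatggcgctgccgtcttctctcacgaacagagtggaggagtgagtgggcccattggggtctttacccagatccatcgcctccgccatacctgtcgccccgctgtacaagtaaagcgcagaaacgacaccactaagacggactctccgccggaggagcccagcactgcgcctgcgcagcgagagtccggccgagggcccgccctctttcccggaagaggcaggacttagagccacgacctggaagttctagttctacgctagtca
Farsb (chr1:78488848-78489147, minus strand): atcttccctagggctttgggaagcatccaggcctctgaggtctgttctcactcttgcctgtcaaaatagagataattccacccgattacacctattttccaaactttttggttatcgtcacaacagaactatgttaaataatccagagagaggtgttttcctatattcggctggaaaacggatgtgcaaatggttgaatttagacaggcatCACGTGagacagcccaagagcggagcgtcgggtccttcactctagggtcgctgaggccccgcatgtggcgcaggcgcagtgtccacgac

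The promoter of Aars holds the first motif at 112 bases before and 9 bases after the start and the E-box at 146 bases before it, so it carries 3 of the 8 matches shown. In Gars the match lies 30 bases before the start, in Tars 15 bases before it, beside an E-box 19 bases after it, and in Yars 3 bases after it. Farsb has its E-box 39 bases before the start. Of the genes with the first motif, Aars, read from the locus named Exosc6, was called higher in activated KIKO cells. Gars (0.08), Tars (-0.24) and Yars (-0.17) were not called. Whether the motifs bear on these values was not tested.

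Kars also offers a view of its 2 forms. The gene makes a cytosolic and a mitochondrial enzyme by alternative splicing, in human by inclusion of an exon near the start. A 180-base exon at chr8:112734839-112735018 (minus strand, GRCm39) was skipped or included between the first exon and a later one. Its inclusion was 5.43, 7.32 and 3.12% in KIKO activated cells, against 12.8, 11.5 and 6.77% in KI activated cells. In naive cells it was 12.2, 52.7 and 8.95% in KIKO, against 16.5, 18.5 and 11.8% in KI libraries. Both genotype comparisons overlapped, and KIKO naive 2, which listed the fewest events, stood far above the rest. No test was run on these shares, which compare FPKM of 2 events without known depth.

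Other genes followed the levels of the 2 extreme members over the 12 libraries. The 5 genes most like the Dars locus were Rrm1 (Pearson r = 0.994), Hmgcs1 (0.994), Mcm5 (0.992), Bzw2 (0.990) and Paics (0.990). Those most like Nars were Ets2 (0.987), Pmepa1 (0.984), Hsph1 (0.983), St14 (0.981) and Ripk3 (0.979). The points share their libraries and fall in 4 groups, and the Dars locus holds Mcm6 as well. The Nars level is that of the internal exon, which also counts transcripts with the short end, high in KIKO activated 1 and 3. Mcm5, another subunit of the replicative helicase, had 7.52, 8.63 and 7.12 FPKM in KIKO activated cells, against 46.9, 63.0 and 89.3 FPKM in KI activated cells. Hsph1, a heat shock chaperone, had 164, 231 and 139 FPKM in KIKO activated cells, against 75.2, 92.2 and 86.4 FPKM in KI activated cells.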

How the data were processed

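The authors deposited 1 table per library, which gives FPKM for each transcript event (a transcript start, end or exon choice) at a numbered locus. Reads were processed with FastQC 0.11.9, cutadapt 2.9 and HISAT2 2.2.0, per the submitters' processing notes, and libraries were made from 15 ng of total RNA by poly(A) selection and a TaKaRa SMART-seq stranded kit, per the labels' protocols. Which program computed the FPKM was not stated. Both GRCm39 and mm10 are named in those notes. Positions of the loci were found to be GRCm39. Events at 0 are not listed, so an absent gene was taken as 0, and depth is unknown. A gene whose locus carries another name would also be taken as 0.

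Duplicate events were dropped, and the level of a locus was the largest of its summed starts, summed ends and largest single event. log2(FPKM + 1) of the 9743 loci with FPKM of at least 1 in at least 3 libraries was fitted with limma 3.58.1 in R 4.3.3, with a mean for each of the 4 groups, a trend of the variance with level and two-sided moderated tests, adjusted by Benjamini-Hochberg within each of 5 comparisons and called under 0.05. The fit was tested on simulated data. The members and lists were chosen with earlier results of these data known. All synthetases by symbol and all list members could be named, with the 5 genes most like the member of the largest called difference; after the values were seen this was applied to the largest in each direction. Intron lengths were compared with GENCODE M21 genes within 1.5 Mb on the same strand. By these, 26 members matched their own gene with at least 3 introns, Dars with 2, and Gars, Mars2, Pars2 and Yars2 have no intron in the files.

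Alternatives were pseudocount, filters, scalings, starts or ends alone, a replicate block, other fits and leaving out each library. Replicate numbers were not taken as pairs. A member and a marker that are counted in the totals are not reported here by name.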

Additional observations from a re-analysis of the deposited data

Results flagged for a closer look

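The response to stimulation differed between the genotypes, by a test of the difference itself (limma's interaction term), for 9 synthetases, all with a smaller response in KIKO cells. That is 30% of the members, where 11.6% of all loci were called lower and 8.99% higher. The interactions on the log2 scale were -1.45 for Vars, -1.20 for the Dars locus, -1.08 for Rars2, -0.82 for Rars, -0.82 for Farsb, -0.79 for Hars, -0.76 for Kars, -0.66 for Eprs and -0.64 for Mars1. The Dars locus also holds Mcm6, and from events of Dars alone the interaction was -0.86. The smallest adjusted p was 0.00048 (Vars) and the largest 0.038 (Mars1). Responses in KIKO cells were between 0.06 (Rars2) and 1.43 (Mars1), against 1.14 (Rars2) to 2.07 (Mars1) in KI cells. With groups of 3 libraries no search for single outlying samples was made.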

How the results depend on the processing

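No called member changed direction under any of the alternatives. Of 12 calls between activated KIKO and KI cells 6 held in every setting, of 3 in naive cells 1, of 23 on stimulation of KIKO cells 17, of 23 on stimulation of KI cells 20, and of 9 interactions 4. Counting summed transcript ends alone, which left 19 members, gave 5 lower in activated KIKO cells, 1 higher in naive KIKO cells, 11 higher and 1 lower on stimulation of KIKO cells, 13 higher and 0 lower on stimulation of KI cells, and 4 lower interactions. That setting left 6485 of all loci, with 1158 called higher and 1151 lower in activated KIKO cells, and 655 lower interactions. The 3 members higher in naive KIKO cells became 1 with no filter, median-ratio scaling, quantile normalization, summed starts alone, the replicate block over the 4 groups, a fit of the compared groups alone, or without both second KIKO libraries, which also left 1 lower on stimulation of KIKO cells. An equal sum gave 5 higher in activated KIKO cells, 3 lower on stimulation of KI cells and 1 higher interaction. Quantile normalization gave 2 higher and 5 lower interactions, where all loci had 914 and 918 in place of 876 and 1134. Fitting only the compared groups gave 2 lower on stimulation of KI cells. The cause of these changes was not tested, beyond the smaller number of members or libraries.

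Leaving out 1 library at a time gave 2 to 3 higher and 6 to 10 lower in activated KIKO cells, 1 to 3 higher and 0 lower in naive KIKO cells, 17 to 20 higher and 3 to 4 lower on stimulation of KIKO cells, 22 higher and 1 to 2 lower on stimulation of KI cells, and 0 to 2 higher and 5 to 9 lower interactions. Calls over all loci moved too. In activated cells they were 1572 higher and 1487 lower without KI activated 3, and 2197 and 2058 without KIKO naive 2, in place of 2021 and 1877. Deviations of libraries with the same replicate number correlated at -0.033 to 0.12 when pairs across genotypes were included. Between naive and activated libraries of a genotype they correlated at -0.0044 to 0.10. There every KI library and KIKO number 2 correlated best with its own number, and KIKO numbers 1 and 3 did not. The second KIKO libraries also shared the myeloid and NK cell markers, and a shared source was not tested. The numbers were not taken as pairs. The block within genotype gave 8 lower interactions, that over the 4 groups 7, and no other count moved but the naive one. Depth is unknown, so the error of low values such as those of Mars2 cannot be stated.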
